A study of Homo sapiens with 4 samples.

Results

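The array labelled Arp8 overexpression was compared with the array of wild-type cells. Both were chosen by their titles, and they are 2 of the 4 arrays without oxidative stress in the series, beside 1 of Arp5 KO and 1 of Arp8 KO cells. All were Nalm-6 cells, an established human pre-B leukemia line, kept at 37°C in RPMI medium with serum. Wild-type cells carried no disruption, and in the KO cells the *ARP5* or *ARP8* locus had been disrupted by homologous recombination. The design text ties the overexpression to Arp8-knockout cells with a built-in tetracycline-regulated (Tet-Off) system, in which a transgene is transcribed until tetracycline or a relative is added. The label of the sample gives neither the drug state nor a clone, and it gives no protein level. Total RNA was labelled with Cy3 and hybridized to Agilent single-color arrays on 1 slide. With 1 array a side the number of arrays limits the precision, and there is no replicate check and no test on any difference. The first array is called the OE-labelled array from here on.

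Arp8 is an actin-related protein and a subunit of INO80, a chromatin remodeling complex that slides nucleosomes and exchanges histone variants around promoters and replication forks. With actin, Arp4 and YY1 it forms a module that binds the DNA next to a nucleosome, while Arp5 sits on the nucleosome core. Pre-B cells are B-lymphocyte precursors that express a surrogate light chain and the recombination enzymes, and that divide rapidly in culture.

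*ACTR8*, the gene of Arp8, was not higher on the OE-labelled array. Its brighter probe (A_24_P131697) read 2149 units of processed signal in wild-type cells, 1857 on the OE-labelled array, 1654 in Arp8 KO and 2233 in Arp5 KO cells. Its dimmer probe (A_23_P80694) read 1092, 679, 785 and 993 units in the same order. The log2 ratios of the OE-labelled array to wild-type cells, after each array was set to its own 75th percentile, were -0.23 and -0.70. Neither probe was higher than in wild-type cells, and the marker therefore went against the label. Arp8 KO cells had ratios of -0.39 and -0.49 on these probes, so *ACTR8* did not clearly bear out the Arp8 KO label either. The transcript regions that the probes cover are not given in the files, and a transcript without those regions would not have been seen. *ACTR5* read 1909 units in wild-type cells, 2088 on the OE-labelled array, 1849 in Arp8 KO cells and 65.3 in Arp5 KO cells, so its low signal was found in Arp5 KO cells alone among the 4 arrays.

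The genes of the INO80 complex differed little between the OE-labelled array and wild-type cells. All 16 were measured, none was beyond 2-fold, and the median log2 ratio was 0.08 against 0.04 over all measured genes. By the brightest probe of each gene, *INO80C* had the highest ratio, 0.31, and *ACTR8* the lowest, -0.23. The dimmer probe of *INO80* was at 0.34. *INO80*, the ATPase of the complex, read 6900 units in wild-type cells, 8070 on the OE-labelled array, 14102 in Arp8 KO cells and 12004 in Arp5 KO cells. Relative to wild-type cells, its log2 ratio was 0.21 on the OE-labelled array, and the KO cells stood higher, at 1.02 for Arp8 KO and 0.82 for Arp5 KO. These 3 ratios share the wild-type array, as do all ratios to wild-type cells given here. Among the other subunits, *NFRKB* was at 0.24, *TFPT* at 0.20, *YY1* at 0.12 and *RUVBL2*, an AAA+ ATPase, at -0.09. The plot of the complex by probe shows the 3 arrays beside each other.

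**Figure D1:**
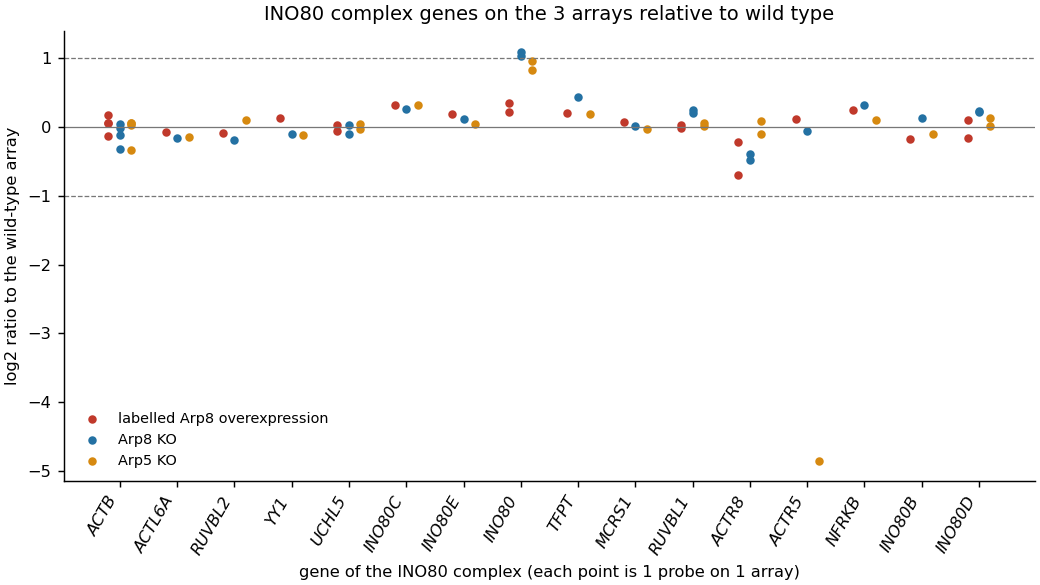
Log2 ratio to the wild-type array of each probe (1 point) of the 16 INO80 complex genes, on the array labelled Arp8 overexpression, the Arp8 KO array and the Arp5 KO array; dashed lines mark 2-fold. The *ACTR8* points of the array labelled Arp8 overexpression lie below 0, at -0.23 and -0.70, and *ACTR5* is low on the Arp5 KO array alone, at -4.84.

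The cells carried the markers of B-lymphocyte precursors on all 4 arrays. Of 11 such markers 10 were named on the array, and all 10 were well above background, a mark of the scanner software for a signal clear of its local background, in each sample. Their summed signal was 359042 units in wild-type cells, 383501 on the OE-labelled array, 361924 in Arp8 KO and 368309 in Arp5 KO cells. *IGLL1*, a surrogate light chain gene, read 140475 units in wild-type cells and 140425 on the OE-labelled array. *CD79A* and *CD79B*, the signaling chains of the B-cell receptor, had log2 ratios of 0.50 and 0.55. *DNTT*, the template-free polymerase of V(D)J joining, was at -0.39. Some markers of other cells were read too: 4 of 6 T-cell, 4 of 6 myeloid and 2 of 5 erythroid markers were well above background on each array. *CD4*, a T-cell and macrophage gene, read 5261 units in wild-type cells, 6575 on the OE-labelled array, 4516 in Arp8 KO and 5912 in Arp5 KO cells. *CD3D* and *CD3G* of T cells, *MPO* and *ELANE* of granulocytes and *HBB* of red cells were among those not well above background on any array.

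Most genes read alike on the OE-labelled array and in wild-type cells. A probe or gene was counted as measured when the brighter of the 2 arrays was well above background, which held for 29694 of 40893 probes with a value on both arrays and for 13658 of 17690 named genes. Beyond 2-fold, 444 (1.5%) of the measured probes were higher and 811 (2.73%) lower. Of the measured genes, each by its brightest probe, 254 (1.86%) were higher and 259 (1.9%) were lower, so the surplus of lower probes did not carry over to named genes. With normexp background correction (offset 50) followed by quantile normalization, called the normexp setting, 20 of 78 genes beyond 2-fold that the rule for named genes chose were within it, as were 6 of 16 named after their values were seen, and they are named beside their values. The middle of the distribution was narrow, with quartiles of -0.16 and 0.23, and 84.6% of the genes lay within 0.5 of 0 on the log2 scale. The ratios nearest the threshold were 1.0004 inside and 0.9997 outside on the higher side, and -1.0044 inside and -0.9988 outside on the lower side. The genes beyond 2-fold were dim: the median brighter signal was 117 units for the higher and 211 units for the lower genes, against 1735 units for all measured genes. Repeated spots of a probe gave a technical SD of a ratio of 0.56 where the dimmer signal was under 20 units, 0.21 from 20 to 50 units, 0.10 from 50 to 500 units and 0.07 above.

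Set against the KO arrays instead of wild-type cells, the OE-labelled array had fewer probes beyond 2-fold from Arp8 KO cells. Of 29261 probes measured there, 271 (0.926%) were higher and 273 (0.933%) were lower than in Arp8 KO cells. Of 29867 probes measured against Arp5 KO cells, 502 (1.68%) were higher and 961 (3.22%) were lower. These comparisons share the OE-labelled array and hold no wild-type value.

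**Figure D2:**
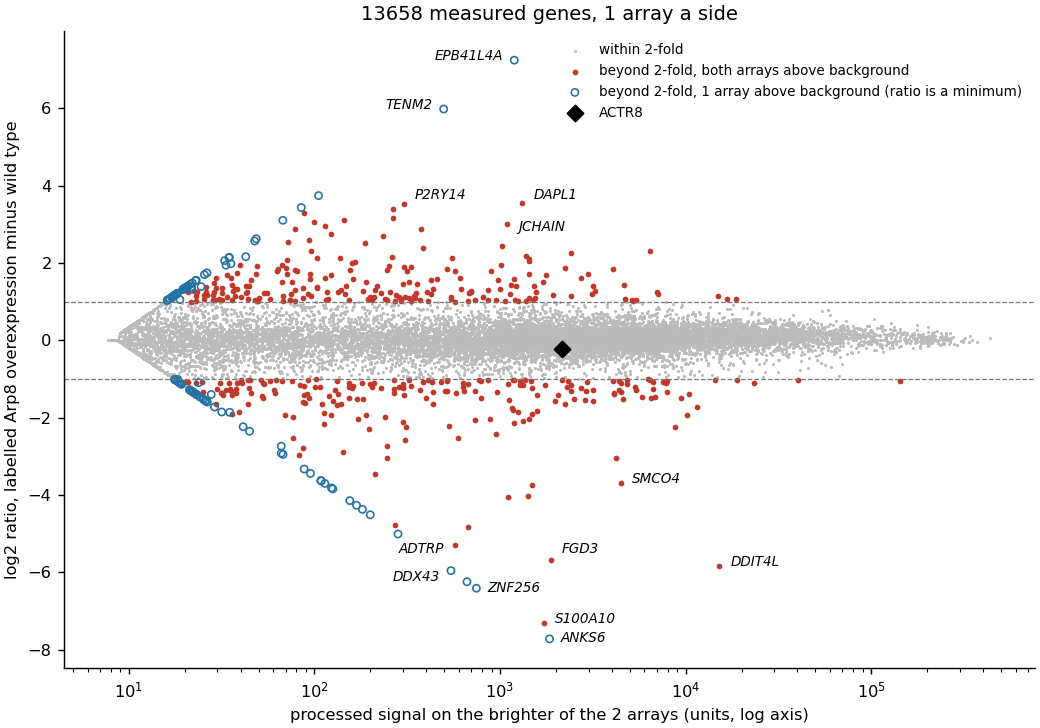
Log2 ratio of the array labelled Arp8 overexpression to wild-type cells against the processed signal on the brighter of the 2 arrays (units, log axis), 1 point for each of 13658 measured genes; open circles are genes well above background on 1 of the 2 arrays only, whose ratio is a minimum. Most genes lie within 2-fold (dashed lines), and *ANKS6* (-7.72), *S100A10* (-7.31) and *EPB41L4A* (7.25) are among those farthest out.

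The replication-dependent histone genes were the gene list with the lowest median on the OE-labelled array. These genes encode the bulk histones of new nucleosomes and are transcribed in S phase. Of 52 named on the array 51 were measured, and 22 of them (43.1%) were lower beyond 2-fold, against 1.9% of all measured genes, and 0 higher. Their median log2 ratio was -0.76, against 0.04 over all measured genes. The summed signal differed less, with 875068 units in wild-type cells, 814575 on the OE-labelled array, 863762 in Arp8 KO and 962659 in Arp5 KO cells. *H4C3*, the most abundant gene of the list, had a ratio of 0.07, and *H4C13* (0.11), *H4C2* (-0.06) and *H3C13* (0.02), which also add much to the sum, were near 0, so the low median came from less bright genes. In the KO cells the same list had medians of -0.11 for Arp8 KO and 0.26 for Arp5 KO, and taken against Arp5 KO cells in place of wild-type cells the OE-labelled array had a median of -1.08.

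The histone classes were not alike. Of 15 H2B genes 14 were lower beyond 2-fold, with a median of -1.41, and the exception was *H2BC12* at 0.18. The 10 H2A genes had a median of -0.79 with 3 lower beyond 2-fold, and the 11 H4 genes a median of -0.51 with 3 lower. The 4 genes of linker histone H1 had a median of -0.49 with 0 lower, and the 11 H3 genes a median of -0.02 with 2 lower. H2B was thus the class with the largest share of lower genes, and H3 the class nearest to 0. *H2AC16*, an H2A gene, read 1435 units in wild-type cells, 355 on the OE-labelled array, 1281 in Arp8 KO and 1784 in Arp5 KO cells, which puts its ratio to wild-type cells at -2.03. *H4C1*, an H4 gene, read 1495, 405, 1318 and 1638 units in that order. *H2BC11*, an H2B gene, read 2243, 727, 2180 and 3607 units. For each of these 3 genes the OE-labelled array was the low one of the 4. Genes of a histone class are near copies of each other, and a probe may bind the transcripts of several. The value of a single member is uncertain for this reason. Members may also not be separate readings, so the counts of lower genes by class and over the list carry the same limit.

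The histone genes that are transcribed outside S phase did not share the low values. Of 10 replication-independent histone genes measured, 0 were beyond 2-fold and the median was 0.11. *H3-3B*, which encodes the replacement histone H3.3, read 115729 units in wild-type cells and 143576 units on the OE-labelled array, a log2 ratio of 0.29. Genes of DNA replication, cyclins and mitosis were near 0. The 38 replication genes had a median of 0.05 and the 25 mitosis genes one of -0.03, both with 0 beyond 2-fold. The 26 genes of G1 and S phase had a median of 0.15 with 1 higher (3.85%, against 1.86% of all measured genes).

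**Figure D3:**
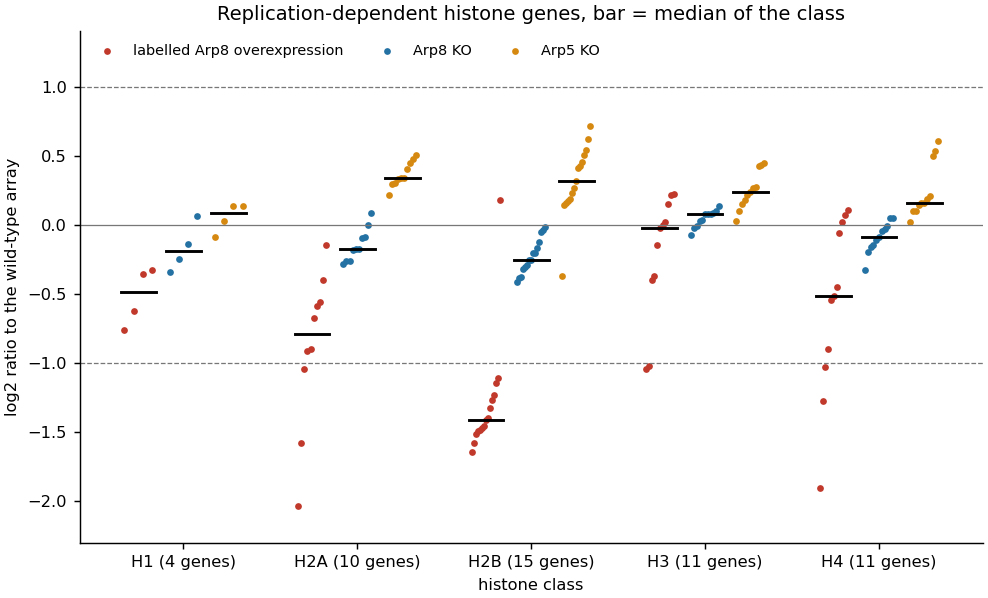
Log2 ratio to the wild-type array of the 51 measured replication-dependent histone genes (1 point a gene), by histone class, on the array labelled Arp8 overexpression, the Arp8 KO array and the Arp5 KO array; bars are class medians. On the array labelled Arp8 overexpression 14 of 15 H2B genes lie below the dashed line of 2-fold, and the H3 median is -0.02.

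Because 22 histone genes were lower together, the histone promoters were read from 250 bases before to 50 bases after the transcription start, and searched on both strands for CCAAT, the core of the CCAAT box, and for the TATA box motif TATAAA. A match of these letters is a description and not a binding site. CCAAT was present in 21 of 21 promoters of histone genes lower beyond 2-fold and in 19 of 25 (76.0%) of those not beyond 2-fold, against 9747 of 27305 promoters in the gene table (35.7%). TATAAA was present in 14 of 21 and in 17 of 25 (68.0%) of these, against 3264 of all promoters (12%). Both motifs were thus frequent in replication-dependent histone promoters at large. The promoters of *H2AC16* and *H2BC11*, the lowest histone genes with an entry in the promoter table, are printed with that of *H3-3B*, a replication-independent gene that was not lower. They are GRCh38.p14 chr6:27865067-27865366 on the plus strand, chr6:27132746-27133045 on the minus strand and chr17:75779730-75780029 on the minus strand, and capitals mark each match of either motif on either strand.
*H2AC16*: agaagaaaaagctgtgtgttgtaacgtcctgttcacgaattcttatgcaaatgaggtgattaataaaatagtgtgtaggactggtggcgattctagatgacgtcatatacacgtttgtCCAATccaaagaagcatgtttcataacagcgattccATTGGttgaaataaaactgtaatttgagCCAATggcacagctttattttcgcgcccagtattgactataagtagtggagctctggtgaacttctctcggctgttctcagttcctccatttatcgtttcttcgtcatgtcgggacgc
*H2BC11*: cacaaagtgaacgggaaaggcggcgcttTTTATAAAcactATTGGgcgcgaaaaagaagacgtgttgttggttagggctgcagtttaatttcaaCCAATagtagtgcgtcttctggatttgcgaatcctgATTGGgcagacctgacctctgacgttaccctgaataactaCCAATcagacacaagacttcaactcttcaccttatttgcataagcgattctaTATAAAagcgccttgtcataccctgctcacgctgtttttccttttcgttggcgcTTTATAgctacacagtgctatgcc
*H3-3B*: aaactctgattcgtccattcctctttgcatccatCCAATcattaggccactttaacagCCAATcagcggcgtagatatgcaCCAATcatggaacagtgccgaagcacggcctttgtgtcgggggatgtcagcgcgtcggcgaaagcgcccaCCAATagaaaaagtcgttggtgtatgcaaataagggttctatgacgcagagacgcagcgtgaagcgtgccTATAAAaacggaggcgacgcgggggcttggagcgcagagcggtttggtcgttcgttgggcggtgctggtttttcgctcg
The *H2AC16* promoter held 3 matches of CCAAT and 0 of TATAAA. The *H2BC11* promoter held 4 of CCAAT and 4 of TATAAA, of which 2 on opposite strands overlap, 1 lies 28 bases before the start and 1 lies past the start. The *H3-3B* promoter held 4 of CCAAT and 1 of TATAAA, 29 bases before the start, so these letters did not set the lower genes apart from *H3-3B*.

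A run of neighboring genes on chromosome 9 was lower on the OE-labelled array. The run was chosen after the data were seen, by a median below -0.5 over 15 genes in a row. Only genes with at least 50 units on the brighter array were used. The counts in the run and the values on either side come from the ratios that chose it, so they describe the run and do not test it. From *IPPK* to *INIP* it held 72 such genes with a median log2 ratio of -0.96 and quartiles of -1.15 and -0.67. Below -0.5 lay 59 of the 72 (81.9%), against 648 of 11193 genes on the other chromosomes (5.79%). Lower beyond 2-fold were 33 (45.8%), against 1.69% of all genes with at least 50 units. The 25 genes before the run had a median of 0.00 and the 25 after it 0.15, so the genes on either side were near the median of all genes. In Arp8 KO cells the run had a median of -0.95 and in Arp5 KO cells one of -0.05. Without the wild-type array, the median was -0.96 for the OE-labelled array against Arp5 KO cells, -0.92 for Arp8 KO against Arp5 KO cells, and 0.01 for the OE-labelled array against Arp8 KO cells.

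Genes of different function lay in the chromosome 9 run. *TXN*, which encodes the redox protein thioredoxin, read 40465 units in wild-type cells, 20208 on the OE-labelled array, 19691 in Arp8 KO and 44747 in Arp5 KO cells. *FANCC*, a gene of the Fanconi DNA repair pathway, read 4369, 2143, 1736 and 4289 units in that order. *SMC2*, a condensin gene, read 4575, 1621, 1666 and 3764 units. In all 3 genes the OE-labelled array and Arp8 KO cells were low, and wild-type and Arp5 KO cells were high. *RAD23B* and *XPA*, of nucleotide excision repair, had log2 ratios of -1.03 and -0.60, and *RNF20*, a ubiquitin ligase gene for histone H2B, read 2635, 1337, 1403 and 2541 units. Of the 13 genes at or above -0.5, *CTSV*, a lysosomal protease gene, was at 0.50, *ABCA1*, a cholesterol exporter gene, at 0.23, and the homeobox gene *BARX1* was higher, by a bound of 3.11. The run held 33 of the 259 genes lower beyond 2-fold and the replication-dependent histones 22, which left 204 in neither.

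**Figure D4:**
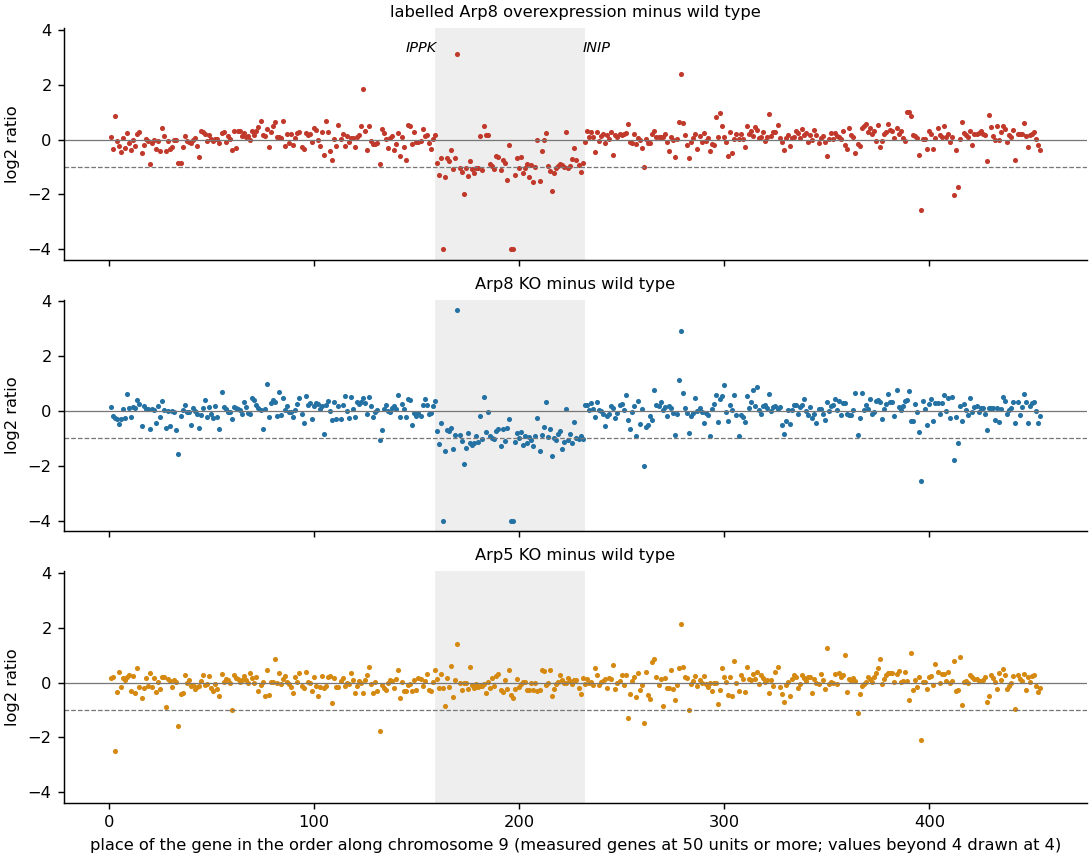
Log2 ratio to the wild-type array of measured chromosome 9 genes with at least 50 units, in their order along the chromosome (gene number, not distance), on the array labelled Arp8 overexpression, the Arp8 KO array and the Arp5 KO array; values beyond 4 are drawn at 4. The shaded run from *IPPK* to *INIP* has a median of -0.96 in the upper panel, -0.95 in the middle panel and -0.05 in the lower panel.

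The 12 genes with the lowest ratios among those well above background on both arrays were between 8.29-fold and 159-fold lower on the OE-labelled array than in wild-type cells. *S100A10*, the annexin A2 partner p11, read 1729 units in wild-type cells, 11.03 on the OE-labelled array, 9.32 in Arp8 KO and 12.3 in Arp5 KO cells, and was high in wild-type cells alone. *DDIT4L*, an inhibitor of mTOR signaling, read 15209, 272, 760 and 23942 units in that order, a log2 ratio of -5.83. *FGD3*, a Cdc42 exchange factor gene of the chromosome 9 run, read 1887, 37.2, 14.5 and 1621 units, and its other probe had a ratio of -3.98. *DDIT4L* and *FGD3* were low on the OE-labelled array and in Arp8 KO cells and high in Arp5 KO cells. *ADCY1*, an adenylate cyclase gene, read 675, 23.9, 35.6 and 636 units. *TJP1*, which encodes the tight junction protein ZO-1, read 271, 10.1, 14.1 and 275 units. *YOD1*, a deubiquitinase gene, read 1414, 88.2, 65.5 and 1176 units, a ratio of -4.02, and its other 2 probes, not well above background on the OE-labelled array, gave bounds of -2.95 and -1.67. These 3 genes were low in the same samples as *DDIT4L* and *FGD3*. *ADTRP* (-5.30), *ZNF512B* (-4.05), *ELFN2* (-3.73), *SMCO4* (-3.69), *CFD*, complement factor D (-3.45), and *S100A11* (-3.05) complete the 12 lowest of these genes.

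Some genes were clear of the background in wild-type cells and not on the OE-labelled array, and for these the ratio is a bound, with the dim side raised to the lowest signal well above background on its array, 8.87 units. *ANKS6*, a ciliary gene of the chromosome 9 run, read 1849 units in wild-type cells and 1.98 on the OE-labelled array, at least 211-fold lower, and 2.25 in Arp8 KO and 1334 in Arp5 KO cells. Its other probe gave a bound of -2.45. *ZNF256*, a zinc finger gene, read 746, 4.43, 2.06 and 631 units in wild-type cells, on the OE-labelled array, in Arp8 KO and in Arp5 KO cells. It was at background in the same samples as *ANKS6*. *DDX43*, a cancer-testis helicase gene, read 544, 3.47, 2.20 and 1.74 units in that order. *RTL6*, a gene derived from a retrotransposon, read 282, 2.17, 2.49 and 2.01 units, so that these 2 genes were at background on all arrays but the wild-type one. *MBNL2*, a splicing regulator gene, was at least 75.7-fold lower on its brightest probe, with a bound of -1.60 on another, and *GALNT12*, a glycosyltransferase gene of the chromosome 9 run, was at least 22.8-fold lower.

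Among genes well above background on both arrays, those with the highest ratios started from low signals in wild-type cells. *DAPL1* read 111 units in wild-type cells, 1321 on the OE-labelled array, 681 in Arp8 KO and 205 in Arp5 KO cells, which puts its ratio to wild-type cells at 3.56. *P2RY14*, a receptor for UDP-glucose, read 26.1, 303, 55.6 and 8.36 units in that order. *JCHAIN*, the joining chain of IgM and IgA, read 134, 1095, 273 and 43.1 units. All 3 were highest on the OE-labelled array, with Arp8 KO cells next. *CDH4*, a cadherin gene, read 24.7, 264, 50.1 and 19.1 units, and *KLHL14*, a gene of B-lymphocyte development, read 29.2, 266, 107 and 39.1 units. *GPR162*, an orphan receptor gene, was instead highest in Arp8 KO cells, at 294 units, with 233 on the OE-labelled array and 35.8 in wild-type cells. *ATXN1* (3.12), *MOXD1* (3.06), *PRL* (2.97), *ARHGEF25* (2.87), *PPP1R14A* (2.74) and *SSUH2* (2.52) complete the 12 highest of these genes, and with wild-type signals of 11.9 to 50.5 units their ratios are less precise than those of bright genes.

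*EPB41L4A*, which encodes a band 4.1 protein of the membrane skeleton, was well above background on the OE-labelled array alone. It read 1193 units on the OE-labelled array and 2.13 in wild-type, 2.54 in Arp8 KO and 2.06 in Arp5 KO cells, at least 152-fold higher than in wild-type cells. *TENM2*, a teneurin adhesion receptor gene, read 497 units on the OE-labelled array, 796 in Arp8 KO, 3.23 in wild-type and 2.49 in Arp5 KO cells. *NFE2*, a blood transcription factor gene, read 105.3 units on the OE-labelled array and 1.74, 4.76 and 2.35 in wild-type, Arp8 KO and Arp5 KO cells. *NFE2*, like *EPB41L4A*, was well above background on the OE-labelled array alone, while *TENM2* was high in Arp8 KO cells too. *MS4A4A* was at least 10.8-fold higher, *BARX1* at least 8.60-fold and *GIMAP6* at least 6.18-fold, and all 3 were also above the wild-type signal in Arp8 KO cells, at 36.2, 100 and 55.7 units. *GIMAP6* was within 2-fold in the normexp setting.

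Myeloid marker genes were the list with the highest median on the OE-labelled array. Of 17 named on the array 13 were measured, 5 were higher beyond 2-fold (38.5%, against 1.86% of all measured genes) and 0 lower, and the median log2 ratio was 0.51, against 0.36 in Arp8 KO and 0.08 in Arp5 KO cells. *CD68*, a lysosomal glycoprotein gene of macrophages, read 162 units in wild-type cells, 572 on the OE-labelled array, 210 in Arp8 KO and 257 in Arp5 KO cells. *CD33*, a sialic acid receptor gene, read 587, 1703, 2792 and 854 units in that order, and *LYZ*, lysozyme, 55.4, 140, 143 and 46.3 units. *CD68* was highest on the OE-labelled array, whereas *CD33* and *LYZ* were as high or higher in Arp8 KO cells. *CSF1R* (1.18) and *S100A8* (a bound of 1.04) were dim, with 25.3 and 16.1 units on the brighter array. *S100A8* counted as measured through the OE-labelled array alone, and 4 of the list were higher among genes well above background on both arrays. Most of the list was dim, as were the genes beyond 2-fold at large, so its share and that of all measured genes are not at like brightness. The summed signal of the list was 1670 units in wild-type cells, 3361 on the OE-labelled array, 4132 in Arp8 KO and 1980 in Arp5 KO cells, and *CD33* was its most abundant gene. *MPO*, *ELANE*, *S100A9* and *CD163* were not well above background on any array, and *CD14* was at -0.14. In RNA of whole cultures, other cells in the culture and more of these RNAs per cell cannot be told apart, just as fewer cells of a type and less RNA per cell cannot, and the part of other cells was not tested. In the normexp setting *LYZ*, *CSF1R* and *S100A8* were within 2-fold, 2 of the list were higher and the median was 0.20. With at least 100 units on the brighter array 3 were higher and the median was 1.31, the value of *LYZ*. Of the 13 genes measured without that limit, 4 were below 0, the lowest at -0.66.

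Markers of other blood and tissue cells did not move in this way. Of 9 T-cell markers measured 0 were beyond 2-fold and the median was 0.00, and of 9 erythroid and megakaryocyte markers 0 were, with a median of 0.11. The 7 stromal and epithelial markers measured had a median of -0.33 with 0 beyond 2-fold, and *KRT18*, a keratin gene, was at -0.78.

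Genes of the B lineage were mostly within 2-fold. Of 21 surface and signaling markers, 1 was higher and 1 lower beyond 2-fold (4.76% each, against 1.86% and 1.9% of all measured genes). The median of these markers was 0.15, against -0.38 in Arp8 KO and -0.18 in Arp5 KO cells. *MS4A1*, which encodes CD20 of mature B cells, read 12.6 units in wild-type cells, 48.9 on the OE-labelled array, 8.68 in Arp8 KO and 2.60 in Arp5 KO cells. *CD34*, a progenitor marker, was lower at -1.09, but its other probe was at -0.60. Of 29 transcription factors 1 was higher (3.45%, against 1.86% of all measured genes) and 3 were lower beyond 2-fold (10.3%, against 1.9%), with a median of -0.06. *POU2F2*, the gene of Oct-2, was higher at 1.52. *BCL6*, a transcriptional repressor gene, read 4822 units in wild-type cells, 2246 on the OE-labelled array, 1037 in Arp8 KO and 1794 in Arp5 KO cells, and was lower on all 3 other arrays than in wild-type cells. *ID1* was at -1.11 and *ERG* at -1.06, with another *ERG* probe at -0.32. In the normexp setting *MS4A1*, *CD34*, *POU2F2* and *ID1* were within 2-fold. The 12 genes of V(D)J recombination and end joining had a median of -0.03 with 0 beyond 2-fold, and *LIG4*, the ligase of that step, was at -0.83.

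Genes of antigen presentation stood slightly above 0. The 15 MHC class II genes had a median of 0.22, against -0.05 in Arp8 KO and -0.07 in Arp5 KO cells, with 0 beyond 2-fold. *HLA-DMB*, a peptide-loading chaperone gene, read 4584 units in wild-type cells and 8146 on the OE-labelled array, and 4429 and 5434 in Arp8 KO and Arp5 KO cells, so the OE-labelled array was the highest of the 4. The 13 MHC class I genes had a median of 0.28, with 0.27 and 0.23 in the KO cells, and *HLA-F* was at 0.48. Of 30 interferon-stimulated genes 1 was higher and 1 lower, with a median of -0.01. That is 3.33% in each direction, against 1.86% higher and 1.9% lower of all measured genes. *USP18*, which removes ISG15, was at 1.07, and *OASL*, not well above background on the OE-labelled array, was at least 5.10-fold lower. Both were within 2-fold in the normexp setting.

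Signaling genes included a few with large differences and no list with many. *IL2RG*, the common gamma chain of interleukin receptors, read 247 units in wild-type cells, 37.3 on the OE-labelled array, 31.2 in Arp8 KO and 116 in Arp5 KO cells. *IL3RA*, an interleukin-3 receptor chain, read 487, 1133, 236 and 268 units in that order, and was highest on the OE-labelled array. They were the 2 of 18 cytokines, chemokines and receptors beyond 2-fold, 5.56% in each direction, and the median was 0.03. Over all measured genes 1.86% were higher and 1.9% were lower. Among 16 adhesion genes with a median of 0.30, 6.25% were beyond 2-fold in each direction. *ESAM*, an endothelial adhesion molecule, was lower at -2.53, and *ICAM1*, a ligand of leukocyte integrins, was higher at 1.05. *ICAM1* was also the 1 of 18 genes of NF-kappaB factors and feedback beyond 2-fold (5.56%), and that list had a median of 0.16. In the normexp setting *ICAM1* was within 2-fold.

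Feedback genes of MAP kinase signaling had a median of -0.29 over 17 genes, with 2 higher (11.8%, against 1.86% of all measured genes) and 2 lower (11.8%, against 1.9%). *PHLDA1* read 452 units in wild-type cells, 1220 on the OE-labelled array, 1405 in Arp8 KO and 1935 in Arp5 KO cells. *SPRY1*, a Sprouty inhibitor gene, read 629, 278, 674 and 630 units in that order, and was low on the OE-labelled array alone. *DUSP5* was at least 4.40-fold higher and *ETV4* at least 4.71-fold lower, both dim, and another *ETV4* probe gave a bound of -0.26. Both genes were within 2-fold in the normexp setting. Of 25 immediate early genes 1 was lower, *EGR4*, by a bound of -2.95, and the median was -0.10, against 0.20 in Arp8 KO and 0.37 in Arp5 KO cells. *FOS* was at 0.90 on the OE-labelled array, 2.37 in Arp8 KO and 5.28 in Arp5 KO cells, and *JUN* at 0.78, 2.90 and 3.72, so both AP-1 genes had the smallest ratio on the OE-labelled array. *MYC* read 67249 units in wild-type cells, 36244 on the OE-labelled array, 71946 in Arp8 KO and 69370 in Arp5 KO cells, and its ratio of -0.91 was within 2-fold.

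Other pathways had at most 2 genes beyond 2-fold. Over all measured genes 1.86% were higher and 1.9% were lower. In the TGF-beta list of 13 genes *SMAD5* was at -1.32, with a median of -0.07. In the Notch list of 15 genes the ligand gene *DLL1* was higher by a bound of 1.38 and the target gene *HEY2* was at -1.07, with a median of -0.03. The 16 Wnt genes had a median of -0.10 with 0 beyond 2-fold, *SP5* reaching 0.77. The 22 SOCS and JAK-STAT genes had a median of 0.05 with 0 beyond 2-fold. The *SOCS3* probes were too dim for more than bounds and disagreed in direction, at -0.68 and 0.54. Of 26 p53 targets *TP53INP1*, an autophagy and cell death gene, was higher at 1.11, and the list had a median of 0.24, against 0.50 in Arp8 KO and 0.07 in Arp5 KO cells. Of 24 genes of the BCL2 family and apoptosis *CASP1*, the inflammatory caspase, was at least 14.1-fold lower, with 124 units in wild-type cells, 7.23 on the OE-labelled array, 2.12 in Arp8 KO and 299 in Arp5 KO cells, and the list had a median of 0.03. *DLL1*, *HEY2* and *TP53INP1* were within 2-fold in the normexp setting.

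Hypoxia targets, metallothioneins and lipid synthesis genes had medians below that of all genes. The 17 hypoxia targets had a median of -0.50, with -0.31 in Arp8 KO and -0.46 in Arp5 KO cells. Of these targets 2 were lower beyond 2-fold (11.8%, against 1.9% of all measured genes). *PFKFB4*, a regulator of glycolysis, read 1175 units in wild-type cells, 342 on the OE-labelled array, 459 in Arp8 KO and 341 in Arp5 KO cells, and *P4HA1*, a collagen prolyl hydroxylase gene, read 1194, 595, 804 and 656 units. Both were highest in wild-type cells. The 21 glycolysis genes had a median of -0.15 with 0 beyond 2-fold, and the lactate exporter gene *SLC16A3* was at -0.80.

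The 11 metallothionein and zinc genes had a median of -0.52 with 0 beyond 2-fold, against 0.04 in Arp8 KO and -0.05 in Arp5 KO cells. *MT1E* read 19890 units in wild-type cells, 11572 on the OE-labelled array, 19150 in Arp8 KO and 18302 in Arp5 KO cells. *MT1F* (0.54) and the zinc exporter gene *SLC30A1* (0.60) went the other way, and metallothionein probes may bind several of these related genes. The 28 genes of cholesterol and fatty acid synthesis had a median of -0.37 with 0 beyond 2-fold, against 0.06 in Arp8 KO and -0.22 in Arp5 KO cells. *INSIG1*, the sterol sensor of the endoplasmic reticulum, read 7845 units in wild-type cells, 4102 on the OE-labelled array, 5970 in Arp8 KO and 4387 in Arp5 KO cells. *HMGCS1*, an early enzyme of the sterol pathway, was at -0.80 and *SQLE*, squalene epoxidase, at -0.60.

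Oxidative stress genes showed no common direction on the OE-labelled array. *HMOX1*, heme oxygenase 1, read 99.6 units in wild-type cells, 118 on the OE-labelled array, 58.6 in Arp8 KO and 37.9 in Arp5 KO cells. The OE-labelled array was the highest of the 4 for this gene, at a log2 ratio of 0.23. The 20 Nrf2 and Bach1 targets had a median of -0.10. Their 1 lower gene (5%, against 1.9% of all measured genes) was *TXN* of the chromosome 9 run. *TXN* is also the 1 lower gene (6.67%) of the 15 peroxiredoxins, superoxide dismutases and catalase, a list with a median of 0.14. The 18 glutathione genes had a median of 0.06 with 0 beyond 2-fold. *GSTK1*, a mitochondrial glutathione transferase gene, read 423 units in wild-type cells, 821 on the OE-labelled array, 818 in Arp8 KO and 9.82 in Arp5 KO cells. Heat shock genes (18 measured, median 0.03) and genes of ATF4 and the unfolded protein response (23 measured, median 0.04) had 0 beyond 2-fold, with *BAG3* at 0.69 and *CRELD2* at 0.84.

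Several lists outside these pathways held between 1 and 3 genes beyond 2-fold, where 1.86% of all measured genes were higher and 1.9% lower. *WIPI1*, an autophagy gene, read 603 units in wild-type cells, 2233 on the OE-labelled array, 1955 in Arp8 KO and 1589 in Arp5 KO cells, and was the 1 of 23 autophagy genes beyond 2-fold, in a list with a median of 0.15. *CCND2*, cyclin D2, read 22.1, 79.0, 155 and 50.4 units in that order. *MED18*, a Mediator subunit gene, read 31.2, 94.8, 348 and 181 units, and was the 1 of 30 Mediator genes beyond 2-fold, in a list with a median of 0.07. These 3 genes were lower in wild-type cells than on the other 3 arrays. Of 12 homeobox genes with a median of -0.04, *LHX2* was higher at 2.39, with 2.92 in Arp8 KO and 2.13 in Arp5 KO cells, and *DLX4* lower at -1.93, with -2.32 and -2.17. Of 20 ETS factors with a median of -0.07, *ETV7* was higher at 1.25 (5%, against 1.86% of all measured genes). *ETV4* and *ERG* were the 2 lower ones (10%, against 1.9%). *S100A16* was at -1.30, beside *S100A10* and *S100A11*, and these were the 3 of 17 S100 and annexin genes lower beyond 2-fold (17.6%, against 1.9% of all measured genes), in a list with a median of -0.03. Of 8 cancer-testis genes measured *DDX43* was lower and the median was 0.20. *CHD3*, a remodeler of the NuRD complex, was at -1.01, close to the threshold, and the list of 27 chromatin remodelers outside INO80 to which it belongs had a median of -0.12. The Fanconi and homologous recombination list of 29 genes had a median of -0.10, and its 1 lower gene was *FANCC*. In the normexp setting *CCND2*, *MED18*, *DLX4*, *ETV7* and *CHD3* were within 2-fold.

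Of the 55 lists, 29 had no member beyond 2-fold, and 23 of these had a median within 0.2 of 0. The 55 cytosolic ribosomal protein genes lay between -0.20 and 0.16. The 39 respiratory chain genes had a median of 0.15, the 31 proteasome genes one of 0.15, and the 21 ribosome biogenesis genes one of 0.00. Genes of tRNA synthetases had a median of 0.03, those of Polycomb and trithorax 0.00, other actin-related proteins 0.09, the actin cytoskeleton 0.17, heme synthesis and iron 0.13, and serine, one-carbon and nucleotide synthesis -0.09. Of the 35 HOX genes named on the array 7 were measured, with a median of -0.28 and 0 beyond 2-fold. The plot of all lists shows the replication-dependent histones at the low end and the myeloid markers at the high end.

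**Figure D5:**
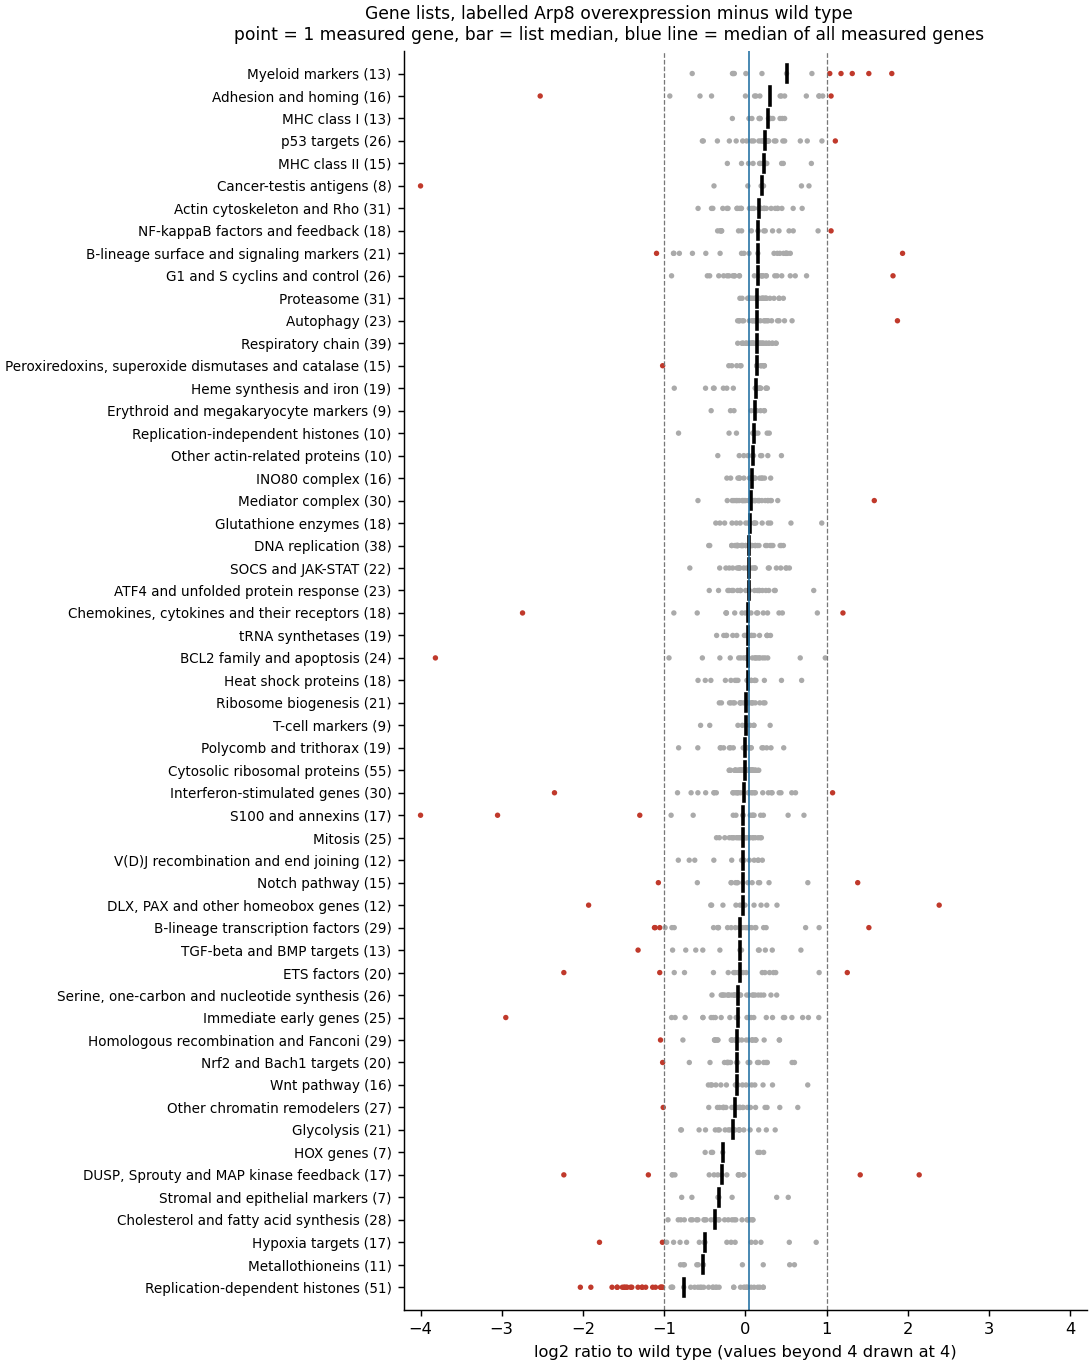
Log2 ratio of the array labelled Arp8 overexpression to wild-type cells for the measured genes (points) of 55 gene lists, ordered by list median (bars), with the number measured in brackets and the median of all measured genes as a blue line; red points are beyond 2-fold and values beyond 4 are drawn at 4. The medians run from -0.76 for replication-dependent histones to 0.51 for myeloid markers.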

How the data were processed

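The authors deposited the scanner output of 4 single-color arrays, 1 per group (Agilent Feature Extraction 10.5.1.1), whose processed signal is a linear intensity after background subtraction within each array, and a table of intensity values that the text does not use except as an alternative. No comparison of the authors' own was used. Control spots were left out, which left 43376 spots on each array. Of these, outlier spots were left out too (116 in wild-type cells and 152 on the OE-labelled array). The log2 signal minus the 75th percentile of its array was averaged by probe. A dim side was raised to the lowest signal well above background on its array. RefSeq accessions and the GRCh38.p14 gene table named 26222 of 41000 probes (64.0%); a gene is given by its brightest probe. The scanner output names another build, so the table served for names, gene order and promoters only. Named genes were the INO80 complex, the 12 highest and 12 lowest, the 6 in each direction well above background on 1 array, and up to 4 of each list. Genes named beyond these, the chromosome 9 run and the motif search were chosen after their values were seen. The members and lists were chosen with earlier results of these data known. The scaling and probe ratios were tested on simulated arrays that held technical noise and no variation between cultures. The choice of the brightest probe and the quantile step were tested on small made-up examples. Naming, gene lists, the chromosome 9 run, the motif search and the normexp setting were not tested in this way. Software was Python 3.11.15, numpy 2.4.6, pandas 2.3.3, matplotlib 3.10.9, R 4.3.3 and limma 3.58.1, which ran normexp on the median signal because the files hold no mean signal.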

Additional observations from a re-analysis of the deposited data

How the results depend on the processing

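Depth here is signal over background: 71.9% of the spots in wild-type cells and 71.0% on the OE-labelled array were well above it, and dim genes carry most of the uncertainty. No paired analysis was possible because each group has 1 array. Alternatives were other scalings, another background correction together with quantile normalization, the table of the authors, other filters, outlier spots kept, other fold thresholds, and genes in place of probes; those for the chromosome 9 run were chosen after seeing the data. Probes higher and lower beyond 2-fold numbered 135 and 220 with normexp followed by quantile normalization, 1281 and 1627 with no filter and signals floored at 1 unit, 218 and 411 with at least 100 units, 254 and 259 when counted as genes, 1608 and 2321 at 1.5-fold, and 134 and 192 at 3-fold. With normexp followed by quantile normalization the medians were -0.69 for replication-dependent histones, 0.20 for myeloid markers with 2 higher, and -0.87 for the chromosome 9 run. With at least 100 units the myeloid median was 1.31 with 3 higher. At 1.5-fold 59 genes of the run were lower. The cause of these shifts was not tested. The list medians of HOX genes and cancer-testis antigens changed sign with other filters on dim probes, as did some list medians near 0. Of 78 genes beyond 2-fold chosen by the rule for named genes, 0 went the opposite way under 11 alternatives with a value for them. With normexp followed by quantile normalization 20 were within 2-fold: *CCND2*, *CD34*, *CHD3*, *CSF1R*, *DLL1*, *DLX4*, *DUSP5*, *ETV4*, *ETV7*, *GIMAP6*, *HEY2*, *ICAM1*, *ID1*, *LYZ*, *MED18*, *MS4A1*, *OASL*, *POU2F2*, *TP53INP1* and *USP18*. So were *CD34* with quantile normalization alone, and *CHD3* with no scaling or with the median set to 0. Of 16 further genes, run after seeing the data, 0 went the opposite way. With normexp followed by quantile normalization *ASAP1-IT1*, *CD1C*, *S100A8*, *SND1-IT1*, *TNFRSF13B* and *TNFRSF17* were within 2-fold, as were *S100A8* and *TNFRSF17* with the table of the authors and with the 75th percentile over probes well above background on both arrays.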

Other observations

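A few single genes outside the lists were picked after their values were seen, for being high on the OE-labelled array. *TNFRSF13B*, the receptor TACI of mature B cells, read 12.3 units in wild-type cells, 72.4 on the OE-labelled array, 5.99 in Arp8 KO and 2.88 in Arp5 KO cells. *TNFRSF17*, the receptor BCMA of plasma cells, read 161, 331, 43.9 and 124 units in that order. *CD1C*, a lipid-presenting molecule, read 19.2, 70.7, 10.39 and 7.36 units. All 3 were higher on the OE-labelled array than on any other array, which is what they were picked for. They read lower in both KO lines than in wild-type cells. For *TNFRSF13B* and *CD1C* these readings were all under 20 units, where ratios are least precise (technical SD 0.56). *CD82*, a tetraspanin gene, read 1106, 4049, 1461 and 1258 units. With normexp followed by quantile normalization *TNFRSF13B*, *TNFRSF17* and *CD1C* were within 2-fold.

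Further genes, also picked after their values were seen, were higher or lower on the OE-labelled array. *GZMA*, a granzyme gene of cytotoxic cells, read 4230 units in wild-type cells, 519 on the OE-labelled array, 317 in Arp8 KO and 1535 in Arp5 KO cells, and *GZMK* read 1333, 318, 302 and 647 units. Both granzyme genes were highest in wild-type cells. *LILRB2*, an inhibitory receptor gene of myeloid cells, read 124, 551, 210 and 116 units, and *PYCARD*, the inflammasome adaptor ASC, read 1348, 3117, 2459 and 28.4 units. *RPL22L1*, a paralog of a ribosomal protein gene, read 142831, 69326, 122603 and 149467 units, and *TERT*, the telomerase reverse transcriptase, read 6646, 2825, 2520 and 4454 units.

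Probes without a gene name were lower more often than named ones. Of 9500 measured probes without a name, 109 (1.15%) were higher and 461 (4.85%) were lower beyond 2-fold, against 335 (1.66%) and 350 (1.73%) of 20194 named probes. With at least 100 units on the brighter array, 199 of 5619 unnamed probes (3.54%) and 212 of 16213 named probes (1.31%) were lower. Among 8 measured genes named as intronic transcripts, 3 were lower beyond 2-fold, against 1.9% of all measured genes, and 0 higher, with a median of -0.30, against -0.18 in Arp8 KO and 0.21 in Arp5 KO cells. *RUNX1-IT1* read 579 units in wild-type cells, 230 on the OE-labelled array, 284 in Arp8 KO and 546 in Arp5 KO cells. *ASAP1-IT1* was at -1.64 and *SND1-IT1* at -1.56, and both were within 2-fold with normexp followed by quantile normalization.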
